A study of Mus musculus with 4 samples.

Results

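The 10 chemokine genes followed here, which stromal and myeloid cells of many tissues transcribe, were measured in single-cell RNA-Seq of the small intestinal lamina propria. They are *Ccl2*, *Ccl7*, *Ccl11*, *Cxcl1*, *Cxcl5*, *Cxcl9*, *Cxcl10*, *Cxcl12*, *Cxcl13* and *Ccl25*. These 10 genes of the 31950 gene IDs that both libraries list were taken from a list and matched by gene ID, whatever their level, and all 10 carry the same symbol in both lists. WT mice were compared with *A20ZF7* mice, which have knock-in point mutations in zinc finger 7 of A20, the part of this ubiquitin-editing protein that binds linear (M1-linked) ubiquitin chains. Cells were freed from the lamina propria of 12-week-old animals, enriched for T cells and innate lymphoid cells by negative selection, and sequenced with a 5′ kit. Each genotype was 1 library made from 2 pooled mice, so the stromal and myeloid cells described here are those that passed through a selection meant to remove them. With 1 library per genotype there is no test between genotypes, and every difference below is a difference between these 2 libraries.

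Chemokines are small secreted proteins that draw leukocytes along a gradient through G protein-coupled receptors. CCL2 and CCL7 recruit monocytes through CCR2, CCL11 (eotaxin-1) recruits eosinophils through CCR3, and CXCL1 and CXCL5 recruit neutrophils through CXCR2. CXCL9 and CXCL10 are made in response to interferon and recruit activated T cells through CXCR3, while CXCL12, CXCL13 and CCL25 act in the resting tissue on CXCR4, CXCR5 and CCR9, guiding hematopoietic cells, B cells and gut-homing T cells. A20 limits signaling to NF-kB, a transcription factor that drives many of these genes in stromal cells. On the mm10 build, *Ccl2*, *Ccl7* and *Ccl11* lie side by side within 27.4 kb of chromosome 11 (82035571 to 82062955), *Cxcl9* and *Cxcl10* lie 18.6 kb apart on chromosome 5, and *Cxcl5* and *Cxcl1* lie 129.6 kb apart on the same chromosome. *Cxcl13* is also on chromosome 5, *Cxcl12* is on chromosome 6 (117168535 to 117181367) and *Ccl25* is on chromosome 8 (4325210 to 4360020).

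A RefSeq table of promoters (GRCm38.p6) held 6 of the 10 members, and the 250 bases before the start site were searched on both strands for the NF-kB consensus and for the interferon-stimulated response element, which is GAAA, any 2 bases (NN) and GAAA again. *Ccl2*, *Ccl7*, *Ccl11* and *Cxcl5* were not in that table. The NF-kB consensus was found before 7.25% of all 32851 starts, the interferon element before 2.98%, and both before 0.164%. The promoters of *Cxcl1*, *Cxcl9* and *Cxcl10* are shown, since these genes differed in their classes and in the size of the difference between the libraries. Capitals mark the matched letters.
Cxcl1, chr5:90890995-90891244, plus strand: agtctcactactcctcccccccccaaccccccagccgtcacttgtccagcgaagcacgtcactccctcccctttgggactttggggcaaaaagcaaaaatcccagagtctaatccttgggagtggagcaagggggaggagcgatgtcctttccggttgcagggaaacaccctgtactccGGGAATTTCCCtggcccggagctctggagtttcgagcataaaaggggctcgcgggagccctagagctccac
Cxcl9, chr5:92328080-92328329, minus strand: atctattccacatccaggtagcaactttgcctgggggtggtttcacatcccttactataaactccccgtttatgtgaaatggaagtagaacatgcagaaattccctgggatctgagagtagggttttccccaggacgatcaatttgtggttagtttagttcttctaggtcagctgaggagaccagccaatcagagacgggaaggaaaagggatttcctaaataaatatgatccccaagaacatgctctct
Cxcl10, chr5:92348890-92349139, minus strand: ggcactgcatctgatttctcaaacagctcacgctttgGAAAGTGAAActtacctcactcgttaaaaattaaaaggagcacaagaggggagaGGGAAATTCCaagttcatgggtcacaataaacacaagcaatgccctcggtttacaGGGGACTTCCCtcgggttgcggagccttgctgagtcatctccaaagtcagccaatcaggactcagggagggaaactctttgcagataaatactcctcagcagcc
The *Cxcl10* window held the interferon element at bases 213 to 204 before the start and NF-kB matches at bases 159 to 150 and 104 to 94, the last made of 2 overlapping matches. The *Cxcl1* window held overlapping NF-kB matches at bases 71 to 61 and no interferon element. Neither pattern was found in the windows of *Cxcl9*, *Cxcl12*, *Cxcl13* and *Ccl25*, which says only that these letters are absent from these windows.

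After filtering, 14734 WT and 43218 *A20ZF7* cells remained, with a median of 1059 and 853 UMIs per cell. Of the 26 clusters, 21 could be named, each as a class "like" the cell type of its markers, and the class names below are used in that sense. Fibroblasts were 5315 WT and 12141 *A20ZF7* cells, smooth muscle cells 1964 and 1707, endothelial cells 486 and 1686, and myeloid cells, a single cluster led by *Lyz2*, *C1qa*, *C1qb* and MHC class II genes, 274 and 1432. Levels are given as CPM, the UMIs of a gene per 1000000 UMIs of the class, with 95% exact Poisson intervals, and ratios of CPM with 95% exact conditional intervals. These intervals cover counting error alone, as if UMIs were independent, and not the spread between cells or between mice. They are too narrow for genes whose UMIs sit in few cells. Since 1 UMI is counted per captured transcript end, CPM are not scaled by gene length. The lymphocyte class, 3504 and 17366 cells, served as the background in which most of these genes should be near 0. The libraries shared 913 cell barcodes, 195 of them in the 4 classes of both. Where a ratio is given without a WT mouse, the cells called for that mouse by hashtag antibody were left out. Cells with no hashtag call, which were not assigned to a mouse, were kept.

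The libraries also differed in what was spread over all cells. The 12 T or innate lymphocyte markers summed to 616 CPM in WT and 1423 CPM in *A20ZF7* fibroblasts, to 656 and 1667 in smooth muscle, to 875 and 1982 in endothelial cells and to 1558 and 1823 in myeloid cells, against 4212 and 3869 in lymphocytes. The 7 fibroblast markers summed to 18154 and 13224 CPM in fibroblasts and to 3107 and 3633 CPM in smooth muscle. In endothelial cells they summed to 2445 and 2596 CPM and in myeloid cells to 2353 and 2362 CPM, with all 7 found in each class. The part of fibroblast RNA in the smooth muscle values below was not tested. Barcodes of at least 10 and under 100 UMIs, which hold mostly free RNA, gave the level of each chemokine outside cells, and these values stand beside the results they touch. The *Tnfaip3* transcript, which encodes A20, cannot check the genotype, since the mutated allele is transcribed.

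**Figure D1:**
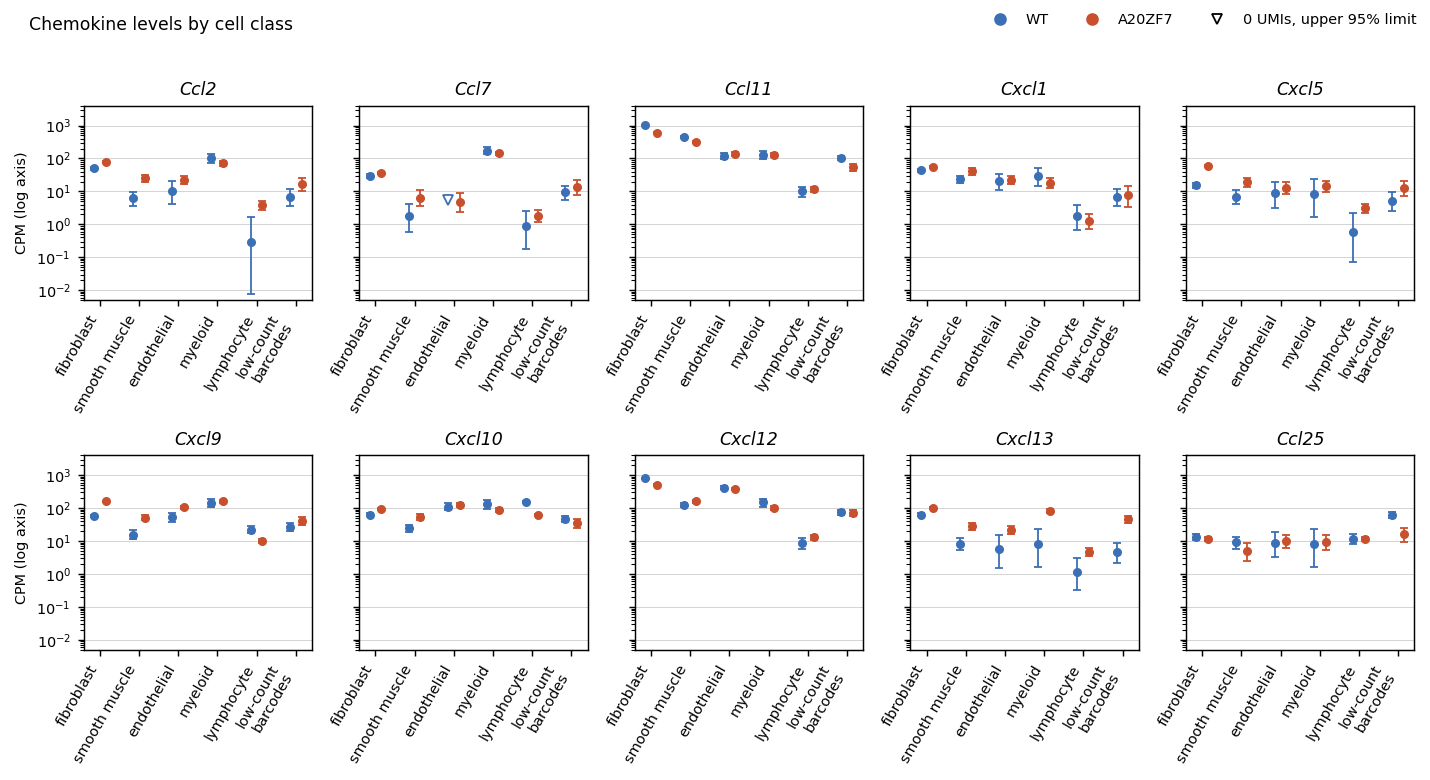
Level of each of the 10 chemokines (CPM, log axis) in the 4 stromal and myeloid classes, in lymphocytes and in low-count barcodes, for the WT (blue) and *A20ZF7* (red) library, with 95% exact Poisson intervals. *Ccl11* and *Cxcl12* were the members with the highest fibroblast levels, and *Ccl25* had intervals in fibroblasts, endothelial and myeloid cells that overlapped those of lymphocytes.

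In WT fibroblasts the levels spanned from 13.6 CPM for *Ccl25* to 1046 CPM (1021 to 1070.4) for *Ccl11*. *Cxcl12* followed at 799 CPM, then a group of *Cxcl10*, *Cxcl13* and *Cxcl9* at 63.2, 62.8 and 58.0 CPM whose intervals overlap, then *Ccl2* at 49.7 and *Cxcl1* at 43.4 CPM, *Ccl7* at 29.5 and *Cxcl5* at 15.2 CPM. In *A20ZF7* fibroblasts *Ccl11* and *Cxcl12* again led, at 615 and 523 CPM, and *Cxcl9* came next at 164 CPM (157 to 170.5). Fibroblasts held most UMIs of 8 members in both libraries, from 57.1% of *Ccl7* in *A20ZF7* to 90.0% of *Cxcl13* in WT. The exceptions were *Cxcl10*, with 36.7% of WT UMIs in lymphocytes and 29.6% in fibroblasts, and *Ccl25*, with 89.3% of WT UMIs in epithelial cells. The shares depend on how many cells of each class were recovered. Fibroblasts were 36.1% of WT and 28.1% of *A20ZF7* cells, smooth muscle 13.3% and 3.95%, and epithelial cells 3.93% and 0.803%.

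**Figure D2:**
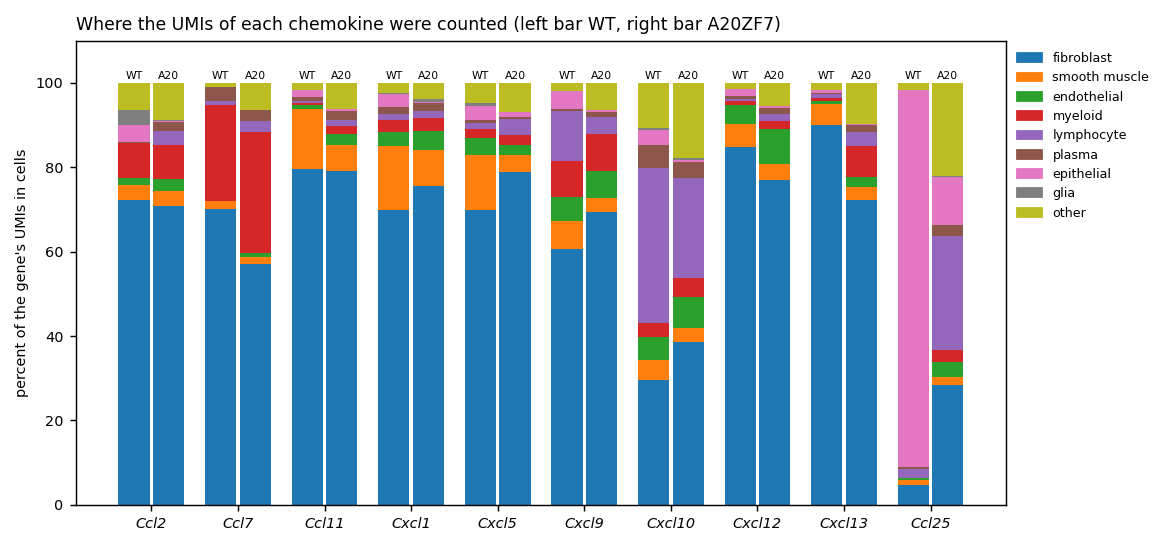
Percent of each chemokine's UMIs in all cells that fell in each class, WT in the left bar and *A20ZF7* in the right. Fibroblasts held most UMIs of 8 members in both libraries, while epithelial cells held 89.3% of *Ccl25* UMIs in WT and 11.5% in *A20ZF7*.

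*Ccl11*, the eosinophil attractant, was lower in *A20ZF7* fibroblasts than in WT, at 615 CPM (602 to 628) against 1046 CPM, a ratio of 0.588 (0.570 to 0.607). It was found in 55.0% of WT and 40.5% of *A20ZF7* fibroblasts. With each cell thinned to 500 UMIs, which left out 682 *A20ZF7* fibroblasts and no WT cell, the shares were 34.8% and 24.5%. Lymphocytes, which should lack the transcript, had it in 0.942% and 0.864% of cells before thinning. The top 1% of fibroblasts by *Ccl11* held 8.37% of its UMIs in WT and 9.71% in *A20ZF7*. In smooth muscle the level was 454 CPM in WT and 310.2 CPM in *A20ZF7*, a ratio of 0.683 (0.621 to 0.750), and 973 of its 1245 WT UMIs and 381 of its 681 *A20ZF7* UMIs lay in the cluster led by *Actg2*, *Hhip* and *Cnn1*. The level there was 1365 and 681 CPM, a ratio of 0.499 (0.442 to 0.562). The third smooth muscle cluster had 529 and 423 CPM, from 207 and 262 UMIs, and the one led by *Acta2* and *Mustn1* had 39.7 and 37.4 CPM. In endothelial cells (122 and 136 CPM) and myeloid cells (129.6 and 125 CPM) the libraries' intervals overlapped. Low-count barcodes held 101 and 54.4 CPM, and fibroblast markers were present in both of these classes, so the part of free or fibroblast RNA in those values was not tested.

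*Ccl2*, the monocyte attractant, was higher in *A20ZF7* fibroblasts, at 78.2 CPM (73.7 to 82.9) against 49.7 CPM (44.5 to 55.3), a ratio of 1.57 (1.39 to 1.78). In smooth muscle it was 6.20 CPM in WT, from 17 UMIs, and 25.1 CPM in *A20ZF7*, from 55 UMIs, a ratio of 4.04 (2.31 to 7.42). In endothelial cells the WT level of 10.2 CPM rested on 7 UMIs, and the ratio of 2.24 had an interval of 1.01 to 5.87. After removal of barcodes with a high Scrublet score (a doublet score) the endothelial ratio was 0.708. Low-count barcodes held 6.90 and 16.8 CPM, and the part of free RNA in the smooth muscle and endothelial levels was not tested. Myeloid cells had the highest *Ccl2* level of the 4 classes in WT, 103 CPM (72.6 to 141), against 70.9 CPM (59.2 to 84.2) in *A20ZF7*, a ratio of 0.690 (0.478 to 1.02). Of the 38 WT myeloid UMIs, 21 were in the 74 cells with no hashtag call (252 CPM), while the mice of hashtags 7 and 8 had 76.8 and 38.3 CPM. The myeloid ratio was 1.25 with classes gated by marker UMIs and 1.16 at a minimum of 1000 UMIs. *Ccl2* UMIs sat in few cells. Of 333 UMIs in WT fibroblasts, 79.9% were in the top 1% of cells, and 1 WT glial cell held 17.

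*Ccl7*, a neighbor of *Ccl2* that encodes a related monocyte attractant, was highest in myeloid cells, at 173 CPM (133 to 221) in WT and 142 CPM (125 to 160.1) in *A20ZF7*, a ratio of 0.820 (0.621 to 1.10) that was 1.70 with classes gated by marker UMIs. Among fibroblasts it marked the *Pi16* cluster, which lies around vessels in many tissues, with 142 CPM in WT and 109.6 CPM in *A20ZF7*, a ratio of 0.774 (0.642 to 0.938). In the *Adamdec1* clusters, the main lamina propria fibroblasts, it was 3.06 and 10.6 CPM, a ratio of 3.47 (1.97 to 6.56), and in the *Bmp5* cluster, which resembles the fibroblasts under the epithelium, 17.1 and 47.4 CPM, a ratio of 2.77 (1.60 to 5.08). The WT *Adamdec1* value rested on 14 UMIs. Low-count barcodes held 9.55 and 13.4 CPM, levels not below those of the *Adamdec1* cells. In smooth muscle (5 and 14 UMIs) and endothelial cells (0 and 10 UMIs) there were too few UMIs for a ratio. For the 0 in WT endothelial cells, a floor of 3 UMIs is 4.36 CPM, and the upper end of the exact Poisson interval is 5.36 CPM.

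The neutrophil attractants parted. *Cxcl5* was 15.2 CPM (12.4 to 18.5) in WT and 60.5 CPM (56.6 to 64.7) in *A20ZF7* fibroblasts, a ratio of 3.98 (3.24 to 4.93), the highest of the members in that class. It was found in 1.47% of WT and 4.98% of *A20ZF7* fibroblasts, and in 0.677% and 2.74% after thinning, against 0.0571% and 0.213% of lymphocytes before it. All 3 fibroblast subsets had it higher, with ratios of 3.87 (3.12 to 4.86) in *Adamdec1*, 6.06 (1.89 to 30.9) in *Bmp5* and 5.15 (2.26 to 14.4) in *Pi16* cells. The *Bmp5* and *Pi16* ratios rested on 3 and 6 WT UMIs. Smooth muscle had 6.93 and 19.1 CPM, a ratio of 2.76 (1.57 to 5.02). The ratio was 4.43 without the WT mouse of hashtag 8 and 2.28 without that of hashtag 7. In smooth muscle these mice had 21.1 CPM (hashtag 8, 9 UMIs) and 1.69 CPM (hashtag 7). A single WT cell held 8 of the 19 WT UMIs. Low-count barcodes held 5.30 CPM of *Cxcl5* in WT and 12.6 CPM in *A20ZF7*, and the part of free RNA in the smooth muscle values was not tested. *Cxcl1* was 43.4 and 54.9 CPM in fibroblasts, a ratio of 1.26 (1.10 to 1.45). It was mostly a transcript of the *Pi16* cluster, which held 56.1% and 59.2% of its UMIs and had 197 CPM (173 to 224) in WT and 201 CPM (185 to 217) in *A20ZF7*, a ratio of 1.02 (0.874 to 1.19). In smooth muscle *Cxcl1* was 23.4 and 40.5 CPM, a ratio of 1.74 (1.25 to 2.43), and in the *Adamdec1* cells 7.86 and 15.3 CPM, beside 6.90 and 7.54 CPM in low-count barcodes.

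*Cxcl9*, one of the interferon-inducible attractants of T cells, was 58.0 CPM (52.4 to 64.1) in WT and 164 CPM in *A20ZF7* fibroblasts, a ratio of 2.82 (2.53 to 3.15). In smooth muscle the levels were 15.7 and 51.5 CPM, a ratio of 3.28 (2.29 to 4.78), and in endothelial cells 53.7 and 106 CPM, a ratio of 1.96 (1.38 to 2.86). In the endothelial cluster led by *Selp* and *Madcam1*, genes of venules through which leukocytes enter tissue, *Cxcl9* was 58.8 CPM in WT and 184 CPM in *A20ZF7*, a ratio of 3.13 (1.91 to 5.39). In the capillary-like cluster led by *Fabp4* and *Flt1* it was 50.3 and 54.7 CPM, a ratio of 1.09 (0.634 to 1.97). Myeloid cells had 146 CPM (109.6 to 190.3) and 163 CPM (145 to 183), a ratio of 1.12 (0.835 to 1.52). The WT fibroblast UMIs were concentrated, with 88.7% of 389 in the top 1% of cells, while in *A20ZF7* that share was 49.8% of 2350. Cells with a *Cxcl9* UMI were 1.84% of WT and 7.05% of *A20ZF7* fibroblasts, and 1.07% and 4.38% after thinning. The unthinned share in lymphocytes was 1.60% in WT, close to that of WT fibroblasts, and 0.720% in *A20ZF7*. Low-count barcodes held 27.1 and 41.0 CPM.

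*Cxcl10*, which shares the receptor CXCR3 with *Cxcl9*, was spread most widely over the classes. Its level was 63.2 and 95.1 CPM in fibroblasts, a ratio of 1.5 (1.35 to 1.68), and 25.2 and 54.7 CPM in smooth muscle, a ratio of 2.17 (1.60 to 2.96). In smooth muscle the WT mice had 20.3 CPM (hashtag 7) and 51.6 CPM (hashtag 8), a ratio of 0.394 (0.178 to 0.831). The latter is near the 54.7 CPM of *A20ZF7*. Low-count barcodes held 47.2 CPM of *Cxcl10* in WT, above the smooth muscle level of that library, and 35.2 CPM in *A20ZF7*. The part of free RNA in the smooth muscle values was not tested. Endothelial cells had 112 and 124 CPM, a ratio of 1.11 (0.859 to 1.45), with 170.3 and 274 CPM in the *Selp* cluster, a ratio of 1.61 (1.18 to 2.23). In myeloid cells it was lower in *A20ZF7*, 87.3 CPM (74.3 to 102) against 129.6 CPM (95.6 to 172), a ratio of 0.674 (0.485 to 0.951). Without the WT mouse of hashtag 7 that ratio was 1.04, and this mouse had 192 CPM in myeloid cells against 91.8 CPM in the mouse of hashtag 8. Lymphocytes had 156 CPM in WT and 62.4 CPM in *A20ZF7*, a ratio of 0.401 (0.359 to 0.448), with the transcript in 6.93% and 3.74% of cells. No other member exceeded 22.5 CPM in WT lymphocytes, the level of *Cxcl9*.

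*Cxcl12*, the ligand of CXCR4 that retains hematopoietic cells near stroma, was 799 CPM (778 to 821) in WT and 523 CPM (511 to 535) in *A20ZF7* fibroblasts, a ratio of 0.655 (0.632 to 0.678). The *Adamdec1* cells had 884 and 528 CPM, a ratio of 0.597 (0.573 to 0.622), and the *Bmp5* cells 879 and 601 CPM, a ratio of 0.684 (0.623 to 0.751). The *Pi16* cells had 409.6 and 468 CPM, a ratio of 1.14 (1.03 to 1.27). In smooth muscle the levels were 125 and 165 CPM, a ratio of 1.32 (1.14 to 1.54). Within the 3 smooth muscle clusters the ratios were 1.25 (0.827 to 1.88), 1.01 (0.784 to 1.30) and 0.918 (0.736 to 1.15), and the cluster with the highest level, 355 and 326 CPM, was 197 of 1964 WT and 302 of 1707 *A20ZF7* cells. Endothelial cells had 421 and 394 CPM, a ratio of 0.936 (0.817 to 1.07), most of it in the capillary-like cluster with 733 and 559.5 CPM. Myeloid cells had 149 and 99.4 CPM, a ratio of 0.669 that was 1.03 with no UMI threshold, beside 75.8 and 70.4 CPM in low-count barcodes. *Cxcl12* was found in 57.7% of WT and 42.3% of *A20ZF7* fibroblasts, and in 33.5% and 24.2% after thinning, against 0.685% and 0.962% of lymphocytes before it.

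*Cxcl13*, the attractant of B cells, was 62.8 CPM (56.9 to 69.1) in WT and 101 CPM (95.8 to 106) in *A20ZF7* fibroblasts, a ratio of 1.61 (1.44 to 1.80). In myeloid cells there were 3 UMIs in WT, or 8.10 CPM (1.67 to 23.7), and 150 UMIs in *A20ZF7*, or 82.4 CPM (69.7 to 96.7), a ratio of 10.2 (3.41 to 49.9). The 150 UMIs were in 67 of 1432 cells, with 56.7% of them in the top 1% of cells and 21 in a single cell. Low-count barcodes held 4.77 CPM in WT and 46.1 CPM in *A20ZF7*, which differed in the same direction. Free RNA was estimated at 6.43% of WT and 18.4% of *A20ZF7* myeloid UMIs, an estimate that was not tested. With free RNA subtracted, the myeloid ratio was 10.8, and over the alternatives that gave a value it ranged from 6.18 to 21.9, with 6.58 without the WT mouse of hashtag 8. All 3 WT UMIs came from the mouse of hashtag 7, so no ratio could be given without it. Smooth muscle had 8.39 and 28.2 CPM, a ratio of 3.37 (2.06 to 5.69) that was 59.8 with classes gated by marker UMIs. Endothelial cells had 5.81 and 22.3 CPM, a ratio of 3.83 (1.40 to 14.7) that rested on 4 WT UMIs and was 7.79 and 2.37 without the WT mouse of hashtag 7 and 8. Both *A20ZF7* values were below that of the low-count barcodes of the same library.

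*Ccl25*, the gut-homing chemokine of small intestinal epithelium, did not exceed the lymphocyte background beyond counting error in any of the 4 classes. It was 13.6 and 11.8 CPM in fibroblasts, 9.12 and 5.01 in smooth muscle, 8.71 and 10.2 in endothelial and 8.10 and 9.34 in myeloid cells, against 11.8 CPM in lymphocytes of both libraries. Epithelial cells had 813 CPM (776 to 852) in WT and 154 CPM (119 to 195) in *A20ZF7*. Within the enterocyte cluster led by *Fabp1* and *Apoa1*, 490 WT and 78 *A20ZF7* cells, the levels were 851 and 348 CPM, a ratio of 0.409 (0.314 to 0.525). That cluster was 490 of 579 WT but 78 of 347 *A20ZF7* epithelial cells. Low-count barcodes held 62.1 and 15.9 CPM of *Ccl25*.

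**Figure D3:**
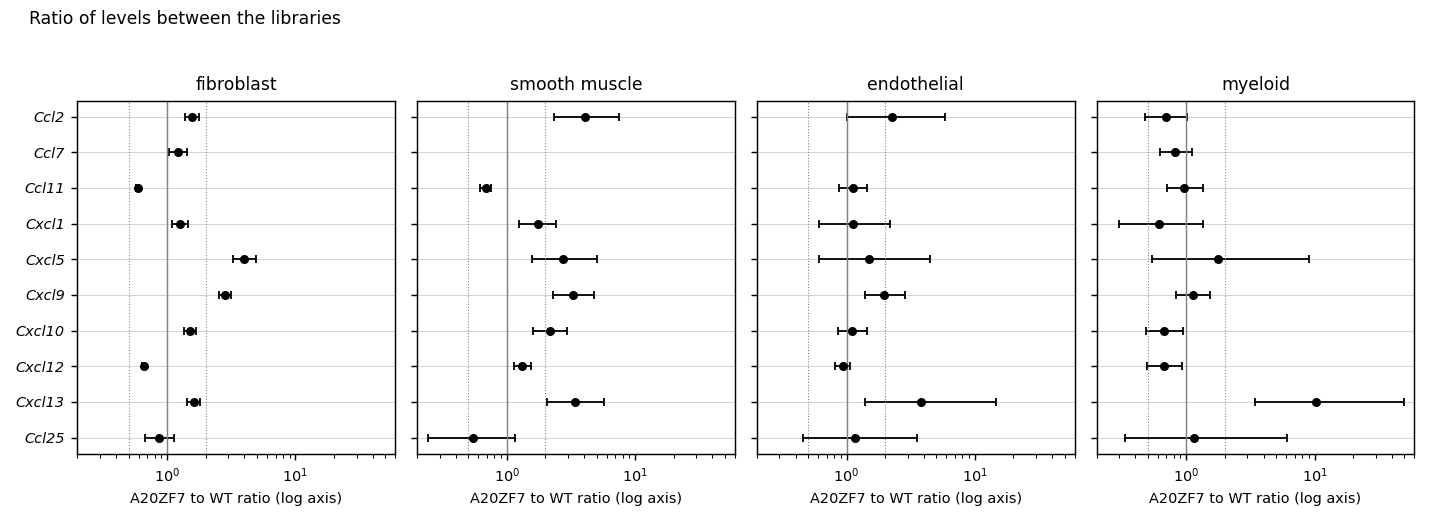
Ratio of each chemokine's level in *A20ZF7* to that in WT (log axis) per class with 95% exact conditional intervals. The solid line is a ratio of 1, the dotted lines are 2-fold, and members with under 20 UMIs over both libraries have no point. In fibroblasts *Cxcl5* (3.98) and *Cxcl9* (2.82) lay past 2-fold while *Ccl11* (0.588) and *Cxcl12* (0.655) lay below 1.

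Counted by a 2-fold limit, 2 of 10 members were higher in *A20ZF7* fibroblasts (*Cxcl5* and *Cxcl9*) and 0 lower, where 7.83% of all genes measured were that much higher and 4.60% lower. In smooth muscle 5 of 9 were higher (*Ccl2*, *Cxcl5*, *Cxcl9*, *Cxcl10* and *Cxcl13*) and 0 lower, with 7.66% and 4.69% of all genes. In smooth muscle of the WT mouse of hashtag 8, *Cxcl5* (21.1 CPM) was above and *Cxcl10* (51.6 CPM) near the *A20ZF7* level. With classes gated by marker UMIs in place of clusters, 3 of 7 were higher in smooth muscle. In endothelial cells 2 of 9 were higher (*Ccl2* and *Cxcl13*) and 0 lower, with 8.74% and 5.61% of all genes, and in myeloid cells 1 of 10 (*Cxcl13*) and 0, with 8.25% and 3.37%. The median ratio of the members was 1.38 in fibroblasts, 2.17 in smooth muscle, 1.17 in endothelial and 0.891 in myeloid cells, and that of all genes measured 0.953, 0.988, 1.0 and 1.04.

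The 3 *Adamdec1* clusters were filled unevenly by the libraries. Cluster 11, led by *Plac9a* and *Mfap4*, had 2024 WT and 90 *A20ZF7* cells, cluster 1, led by *Sfrp1* and *Serpina3n*, 344 and 5283, and cluster 4, led by *Mmp10* and *Igfbp3*, 1330 and 2833. Values within cluster 4, the one well filled in both, were therefore set beside the class values. There, *Ccl11* was 1873 CPM (1808 to 1939.6) in WT and 1129 CPM (1094 to 1165) in *A20ZF7*, a ratio of 0.603, and *Cxcl12* was 975 and 507 CPM, a ratio of 0.521. *Cxcl5* was 34.1 and 118 CPM, a ratio of 3.45 (2.61 to 4.63), and *Cxcl9* was 156 and 379 CPM, a ratio of 2.44 (2.13 to 2.79). *Cxcl13* was 132 and 166 CPM, a ratio of 1.26 (1.07 to 1.47). These 5 genes differed in the same direction within cluster 4 as over all fibroblasts. The interval of *Cxcl10*, with 77.2 and 84.0 CPM and a ratio of 1.09 (0.881 to 1.35), included 1, and *Ccl2*, with 99.3 and 79.9 CPM and a ratio of 0.805 (0.661 to 0.982), went against its class value of 1.57. *Cxcl10* also went both ways in the other *Adamdec1* clusters, with a ratio of 0.419 (0.326 to 0.545) in cluster 1 and 4.23 (2.02 to 8.06) in cluster 11, the latter from 11 *A20ZF7* UMIs.

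**Figure D4:**
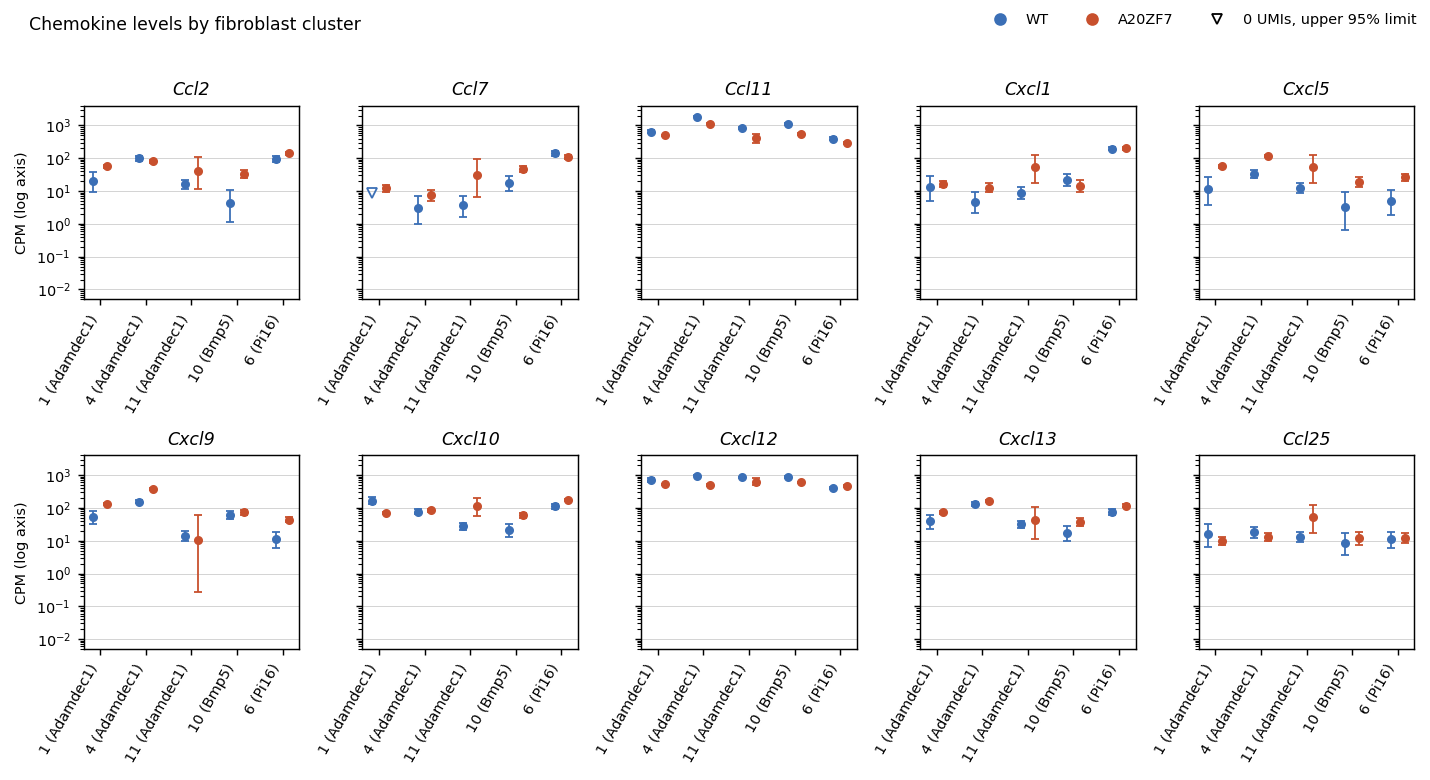
Level of each chemokine (CPM, log axis) in the 5 fibroblast clusters, named by number with the subset in brackets, for the WT (blue) and *A20ZF7* (red) library, with 95% exact Poisson intervals. *Ccl7* and *Cxcl1* were highest in the *Pi16* cluster of WT, while *Ccl11*, *Cxcl5*, *Cxcl9* and *Cxcl13* were highest in cluster 4.

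Hashtag antibodies separated the 2 WT mice for a part of the cells. The counts deposited for hashtags 9 and 10 of the *A20ZF7* library did not allow the same there. Fibroblasts were 1101 cells of the mouse of hashtag 7, 777 cells of the mouse of hashtag 8 and 3437 cells with no call. *Ccl11* was 960.3 and 899.9 CPM in these mice and 1126 CPM in cells with no call, all above the 615 CPM of the *A20ZF7* library. *Cxcl12* was 686, 708 and 875 CPM, all above 523 CPM. *Cxcl5* was 16.0, 12.5 and 15.7 CPM, all below 60.5 CPM. Over all fibroblasts the mice differed most in the interferon-inducible pair. *Cxcl9* was 89.5 CPM (hashtag 7) and 43.2 CPM (hashtag 8), a ratio of 2.07 (1.5 to 2.90), and *Cxcl10* was 79.0 and 50.7 CPM, a ratio of 1.56 (1.14 to 2.15). The *A20ZF7* level of 164 CPM for *Cxcl9* was above both, though under 2-fold above that of the mouse of hashtag 7 alone. Leaving out the cells called for either mouse gave ratios of 2.67 to 3.41. The 3437 cells with no call stayed in both, so neither ratio is free of a mouse. Only 1 of the 10 members was 2-fold apart between the WT mice over all fibroblasts, *Cxcl9*, where 2.38% of all genes measured were. In *Adamdec1* cells 2 of 8 were (2.80% of all genes), *Ccl2* with a hashtag 7 to hashtag 8 ratio of 2.03 and *Cxcl10* with 2.01. In *Bmp5* cells 1 of 3 was (5.96%), *Cxcl9* with 4.23. In *Pi16* cells 1 of 7 was (6.77%), *Ccl2* with 0.298, opposite to its *Adamdec1* ratio. These ratios rest on few cells. The 58 *Cxcl9* UMIs of WT *Bmp5* cells were in 6 cells, with 27 in a single one. The 113 *Ccl2* UMIs of WT *Pi16* cells were in 35 cells, with 21 in a single one. In all, the *A20ZF7* fibroblast level was above both WT mice for 7 members and below both for 3, the latter *Ccl11*, *Cxcl12* and *Ccl25*. The same was not counted over all genes, so this tally is not a result about the members. WT cells with no call had 31.7 CPM (26.3 to 37.8) of *Ccl7*, 50.5 CPM (43.7 to 58.1) of *Cxcl1* and 11.9 CPM (8.68 to 15.8) of *Ccl25*. Those 3 intervals held the *A20ZF7* level. With 2 mice the tally does not give the spread between animals of a genotype.

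**Figure D5:**
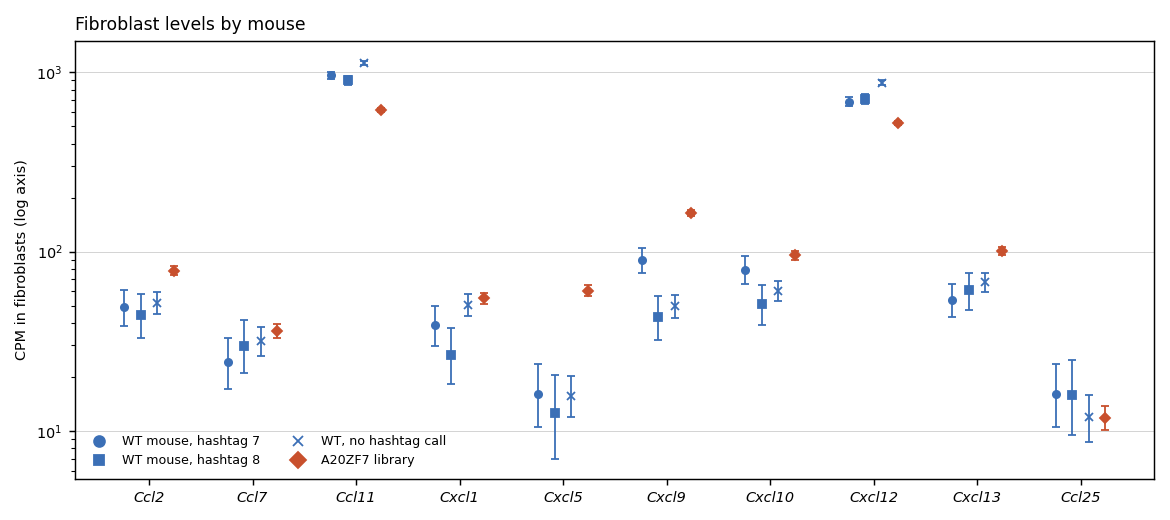
Fibroblast level of each chemokine (CPM, log axis) in the 2 WT mice told apart by hashtag, in WT cells with no hashtag call, and in the *A20ZF7* library of 2 pooled mice, with 95% exact Poisson intervals. *Ccl11* and *Cxcl12* of the *A20ZF7* library lay below all 3 WT values, and *Cxcl5* and *Cxcl9* above them.

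The members' receptors were mostly transcripts of other classes. In WT, *Ccr2* (89.4 CPM), *Ccr9* (316 CPM) and *Cxcr3* (70.2 CPM) were highest in lymphocytes, and *Ccr1* (56.7 CPM) and *Cxcr4* (224 CPM) in myeloid cells. *Cxcr2* and *Ccr3*, the receptors of the neutrophil and eosinophil attractants, were at no more than 4 UMIs in any WT class. *Cxcr3* in lymphocytes was 30.8 CPM in *A20ZF7*. In fibroblasts 6 of 7 measured receptor genes were 2-fold or more higher in *A20ZF7*, among them *Ccr2* (7.76 and 49.9 CPM) and *Ccr9* (55.3 and 173 CPM), and 5 of 6 in smooth muscle and in endothelial cells. Of all genes measured, 7.83%, 7.66% and 8.74% were that much higher in these classes. The lymphocyte markers given above differed in the same direction in all 3 classes, and their part in these receptor values was not tested. Scavenging receptors, which bind chemokines without signaling for migration, lay in stroma. *Ackr1*, the scavenger of venular endothelium, was 315 CPM (275 to 359.9) in WT and 134 CPM (119 to 151) in *A20ZF7* endothelial cells, a ratio of 0.426 (0.355 to 0.511). Within the *Selp* cluster, which held 216 of 217 and 271 of 277 of its UMIs, the levels were 669 and 453 CPM, a ratio of 0.678 (0.565 to 0.814), and that cluster was 197 of 486 WT and 385 of 1686 *A20ZF7* endothelial cells. *Ackr3*, a scavenger of CXCL12, was 163 and 67.3 CPM there, a ratio of 0.414 (0.320 to 0.536), with 0.436 (0.294 to 0.643) in the *Selp* cluster, and *Ackr4* in fibroblasts was 46.8 and 47.4 CPM. In endothelial cells 2 of 3 measured scavenging receptors were 2-fold or more lower over the class, where 5.61% of all genes measured were. Of this pair, *Ackr3* alone was also 2-fold or more lower within the *Selp* cluster.

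Among 19 other chemokine genes, 15 were measured in fibroblasts, with 5 higher and 2 lower by 2-fold or more, where 7.83% and 4.60% of all genes were. *Cxcl14*, like *Ccl11* a fibroblast transcript, was 171 and 59.1 CPM, a ratio of 0.346 (0.317 to 0.379). *Ccl5*, a lymphocyte chemokine, was 523 and 2155 CPM in fibroblasts against 3938 and 5287 CPM in lymphocytes, and *Ccl20* was 1.79 and 35.7 CPM against 25.8 and 103 CPM in lymphocytes. Both moved with the lymphocyte markers, and the part of these in the fibroblast values was not tested. In smooth muscle 5 of 10 were higher and 0 lower (7.66% and 4.69% of all genes), in endothelial cells 4 of 11 and 0 (8.74% and 5.61%). In myeloid cells 4 of 15 were higher and 4 lower (8.25% and 3.37% of all genes). The lower 4 were *Ccl6* (605 and 194 CPM), *Ccl9* (94.5 and 36.3 CPM), *Ccl12* (113 and 50.5 CPM) and *Ccl24* (105 and 31.9 CPM). The higher 4 were *Ccl5* (1132 and 2450.0 CPM), *Ccl20* (0 and 97 UMIs), *Ccl22* (8.10 and 36.3 CPM) and *Cxcl3* (2.70 and 30.8 CPM), the last pair from 3 and 1 WT UMIs. *Cxcl2*, a neutrophil attractant, was highest in myeloid cells, at 413 CPM in WT and 422 CPM in *A20ZF7*.

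Of 15 genes of the NF-kB response, 5 were 2-fold or more higher and 1 lower in *A20ZF7* fibroblasts, where 7.83% and 4.60% of all genes measured were. *Saa3*, an acute-phase protein of stroma, was 13.3 and 367 CPM, a ratio of 27.7 (22.4 to 34.5). *Lcn2*, which withholds iron from bacteria, was 0 UMIs in WT and 228 in *A20ZF7*, at least 35.5-fold higher against a floor of 3 UMIs in the class. *Tnfaip3* was 263 and 625 CPM, a ratio of 2.38 (2.26 to 2.51). The lymphocyte markers, at 616 and 1423 CPM in fibroblasts, differed in the same direction. Their part in *Tnfaip3* and the other higher genes of this list was not tested. *Cebpd*, a transcription factor of the acute phase, was 779 and 350.3 CPM, a ratio of 0.450. In smooth muscle 5 of 14 were higher and 0 lower, in endothelial cells 3 and 2 of 15, and in myeloid cells 2 and 0 of 15. The shares of all genes higher and lower were 7.66% and 4.69%, 8.74% and 5.61%, and 8.25% and 3.37% in these 3 classes. Of 14 interferon response genes, 4 were higher and 0 lower in fibroblasts, among them *Iigp1* (131 and 387 CPM), *Gbp4* (19.8 and 49.4 CPM) and *Tap1* (52.4 and 118 CPM). In smooth muscle these were 6 of 13 and 0, in endothelial cells 1 of 14 and 0, and in myeloid cells 1 and 2 of 14. The shares of all genes are those just given, and 1 of 14 higher in endothelial and in myeloid cells is near them. In myeloid cells *Iigp1* was the higher one (45.9 and 135 CPM). The myeloid pair that was lower was *Rsad2* (64.8 and 21.4 CPM) and *Irf7* (64.8 and 28.0 CPM).

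Members also differed in which genes resembled them across 37 profiles, each a cluster in 1 library with at least 50 cells. Pearson's r is a description here, since the profiles share 2 libraries and their depth. Over 4960 genes, *Ccl11* was most like *Tcf21* (r = 0.98), a fibroblast transcription factor, and *Col6a1*, and *Cxcl12* most like *Lamb1* (r = 0.96) and *Fn1*, both matrix genes. *Ccl11* and *Cxcl12* had r = 0.89 with each other. *Cxcl10* was most like *Icam1* (r = 0.69), *Gbp6* and *Igtp*, the last of these interferon-inducible GTPases. *Cxcl9* was most like *Ptgs1* (r = 0.80) and *Stat2*, and its r with *Cxcl10* was 0.36. *Ccl2* was most like *Cp* (r = 0.87) and *Cxcl13* (r = 0.83), *Cxcl1* most like *Igfbp6* (r = 0.82), a gene that led the *Pi16* cluster, and *Ccl25* most like *Hkdc1* (r = 0.97), an epithelial gene.

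In fibroblasts thinned to 500 UMIs, some pairs were found together in more cells than the product of their shares gives. *Cxcl9* and *Cxcl10* were both found in 9 of 5315 WT cells, where the product gives 0.997, and in 58 of 11459 *A20ZF7* cells, where it gives 16.3. *Ccl2* and *Ccl7*, neighbors on chromosome 11, were both found in 8 WT and 27 *A20ZF7* cells, where the products give 0.486 and 3.05. Pairs on different chromosomes were also found together more often. *Ccl7* and *Cxcl1* were both found in 7 and 29 cells, where the products give 0.687 and 2.67. *Ccl2* and *Cxcl1* were both found in 6 and 34 cells, where they give 1.05 and 5.13. *Ccl11* and *Cxcl12* were both found in 690 and 734 cells, where the products give 621 and 679. Cells of a subset share both genes, so these counts describe how the transcripts were placed among fibroblasts and were not tested.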

How the data were processed

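The gene expression and antibody libraries held UMI counts per gene and barcode, deposited by the authors as unfiltered matrices. Cell Ranger 8.0.0 stands in the gene expression headers, while the submitters' notes name Cell Ranger 7.1, R 4.3.3, Seurat 4.3 and mm10. The libraries list 33696 (WT) and 32285 (*A20ZF7*) gene IDs, and 31950 shared IDs were used, which leaves out 0.334% of WT and 3.41% of *A20ZF7* UMIs. The antibody matrices of both genotypes were identical, with 4485 and 6888 UMIs of hashtags 9 and 10 against 17857336 and 14965342 of hashtags 7 and 8, so they were used for WT alone (4173, 3404 and 7157 cells called 7, 8 or neither).

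Cells outside 200 to 2500 genes or above 15% mitochondrial counts were left out, as in the study, with minimums of 675 (WT) and 396 (*A20ZF7*) UMIs set by the order-of-magnitude rule (0.1 of the UMIs at the 0.99 quantile of estimated cells). WT barcodes with 2 hashtags by HTODemux were removed, and other doublets were left in. Cells were clustered with Seurat 5.3.0 (2000 variable genes, 30 principal components, cell cycle scores regressed out, resolution 0.8) and clusters named from marker lists, by a mean log2 fold of at least 0.4 or by markers among the 10 leading genes, limits set after the clusters had been seen. Levels, intervals and thinning to 500 UMIs were computed with scipy 1.17.1 (Python 3.11.15, pandas 2.3.3, numpy 2.4.6), and ratios required 20 UMIs over both libraries. Scrublet scores came from scanpy 1.11.5. Called means a ratio past 2-fold. Ratios were tested on simulated data. In the class sums, 3 UMIs correspond to 0.447 and 0.209 CPM in fibroblasts and 8.10 and 1.65 CPM in myeloid cells (WT and *A20ZF7*). All 10 members are named in every class, and other listed genes past 2-fold were named at up to 4 per list and class, largest first. Other chemokines were named at 100 CPM or more in a class, except *Ccl9*, *Ccl22* and *Cxcl3*, named after their values were seen. The members and lists were chosen with earlier results of these data known. Some values of listed genes are not reported here.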

Additional observations from a re-analysis of the deposited data

Results flagged for a closer look

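For 3 members, the ratio of *A20ZF7* to WT went in opposite directions in different cells, with intervals that exclude 1 on both sides. These intervals hold counting error alone and leave out the spread between cells and mice. Whether the ratios differ was not tested. *Ccl7* was higher in the *Adamdec1* (3.47) and *Bmp5* (2.77) fibroblasts and lower in the *Pi16* fibroblasts (0.774), the subset with the highest fibroblast level. The *Adamdec1* levels, in WT from 14 UMIs, were not above the 9.55 and 13.4 CPM of low-count barcodes. *Cxcl10* was higher in fibroblasts (1.5) and smooth muscle (2.17) and lower in myeloid cells (0.674), and the myeloid value without the WT mouse of hashtag 7 was 1.04. Among the *Adamdec1* clusters its interval included 1 in cluster 4, and it was lower in cluster 1 and higher in cluster 11. In smooth muscle *Cxcl10* was 20.3 and 51.6 CPM in the WT mice of hashtags 7 and 8, the latter near the *A20ZF7* level. *Cxcl12* was higher in smooth muscle (1.32) and lower in fibroblasts (0.655) and myeloid cells (0.669). The intervals in all 3 smooth muscle clusters included 1, and the myeloid value was 1.03 with no UMI threshold. Within fibroblasts *Cxcl12* was higher in the *Pi16* cells (1.14) and lower in the *Adamdec1* (0.597) and *Bmp5* cells (0.684).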

How the results depend on the processing

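Over 38 ratios, each under the 12 to 16 alternatives that gave it a value, direction was kept throughout for 23. In fibroblasts *Cxcl5* ranged from 3.70 to 4.17, *Cxcl9* from 2.67 to 3.41, *Ccl11* from 0.571 to 0.614 and *Cxcl12* from 0.599 to 0.681. The endothelial *Ccl2* ratio of 2.24 turned to 0.708 without barcodes of a high Scrublet score, and the cause was not tested. With few WT cells, myeloid *Cxcl13* ranged from 6.18 to 21.9 and *Cxcl1* from 0.482 to 2.84, and gated classes gave 59.8 in place of 3.37 for *Cxcl13* in smooth muscle. Members 2-fold or more higher in smooth muscle were 3, not 5, with gated classes. Those lower were 1, not 0, with gated classes (*Ccl11*) and, by *Ccl25*, with a limit of 5000 genes, hashtag doublets kept, resolution 1.5 or free RNA subtracted. Higher in endothelial cells were 1, not 2, with 5000 genes, Scrublet removal, no cell cycle regression or gated classes, 4 with hashtag doublets kept, and 0 (of 5 measured) after thinning. Higher in myeloid cells were 2, not 1, at 500 UMIs or with no UMI threshold, 4 at 1000 UMIs, and 3 with 5000 genes, hashtag doublets kept or resolution 0.4. Leaving out the cells called for either WT mouse, with cells of no call kept, gave 0 to 1 lower in smooth muscle and 0 to 1 lower in myeloid cells. Leaving out the barcodes found in both libraries, added after seeing the data, changed none of these counts. No paired analysis was possible because each genotype is 1 pool of mice with no pairing.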
